A study of Mus musculus with 15 samples.

Results

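The interferon response genes are 45 genes taken by symbol from the 54532 rows of the deposited gene table, and all 45 symbols were found there. They fall into 14 genes induced mainly by type I interferon (the Ifit, Oas and Mx genes, Isg15, Rsad2 and Irf7), 10 GTPases known for their induction by interferon gamma (the Gbp and Irgm genes, Igtp, Iigp1 and Tgtp2) and 21 other interferon-induced genes. Each was followed across the 15 libraries of the study, and the first set was then compared with the second.

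Interferons are secreted signals that switch cells into a state of defence against viruses and intracellular microbes. Type I interferons act through Ifnar1 and Ifnar2 on a complex with Stat2 and Irf9 that binds interferon-stimulated response elements (ISRE), whereas interferon gamma acts through Ifngr1 and Ifngr2 on gamma-activated sites (GAS). Many target genes respond to both signals, so the division into a mainly type I set and a gamma set is a matter of degree. In infarcted mouse hearts, DNA of dying cells taken up by macrophages is known to start a type I response.

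Poly-A RNA of the left ventricle was sequenced from C57BL/6JRj females, 12 to 18 weeks old, 8 days after surgery, with 5 libraries in each of 3 groups. The GSK group received GSK-343, an inhibitor of the histone methyltransferase EZH2, at 20 mg/kg in 20% Captisol injected intraperitoneally each day, the first dose 6 h after surgery and the last on day 7. The MI group had its left descending coronary artery tied off for good, to cause a myocardial infarction, and received the vehicle. The Sham group had sham surgery and the same vehicle. That the GSK hearts were infarcted as well is read from the treatment protocol, as their names give only the compound. Sham replicates 1 and 2 each hold mixed RNA of 2 animals, which averages part of the spread between animals, and the letter G stands in the names of GSK replicates 1 and 2 where all others have S. No group without surgery, no group treated with GSK-343 after sham surgery and no group treated with an interferon was analysed here.

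Between 21.5 M and 26.8 M fragments per library fell on genes, and values are in FPKM, fragments per kilobase of gene length relative to a library total set by the authors. The share of FPKM taken by mitochondrially encoded genes was 38.3% ± 8.49 in GSK, 29.0% ± 6.74 in MI and 41.6% ± 0.352 in Sham (SD, n = 5 each), with GSK replicates 3 and 4 at 46.4% and 48.7% and MI replicate 4 at 40.6%. Cardiomyocyte markers were abundant in every library, with a summed level of 11780 to 17309 FPKM in GSK, 10076 to 20061 FPKM in MI and 14123 to 18725 FPKM in Sham. Macrophage markers summed to 451 to 1018 FPKM in GSK, 659 to 1108 FPKM in MI and 311 to 384 FPKM in Sham. A change in a gene's level in such bulk tissue can reflect fewer or more cells of a type or less or more RNA per cell, and these cannot be told apart.

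A promoter sequence was at hand for 33 of the 45 members, in RefSeq's table for GRCm38.p6 (the build also called mm10), as the window from 250 bases before to 50 bases after the start of the gene. Each window was searched on both strands for an ISRE-like motif, written as GAAA, any 2 bases and GAAA again, and for a GAS-like motif, TTCNNNGAA, where N is any base. The stretches below are shown as examples of windows without and with the GAS-like motif, and were chosen after the matches were seen. They run 5′ to 3′ on the strand of the gene, with the motif matches in capitals and 15 bases on either side of the outermost matches. Among the mainly type I genes, Isg15 holds overlapping ISRE-like matches (chr4:156200860-156200911, minus strand), and Ifit1 (chr19:34640770-34640828, plus strand), Ifit3 (chr19:34583358-34583431, plus strand) and Rsad2 (chr12:26456548-26456587, minus strand) hold them on the opposite strand, where the motif reads TTTC.
Isg15: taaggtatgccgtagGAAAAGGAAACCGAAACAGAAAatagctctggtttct
Ifit1: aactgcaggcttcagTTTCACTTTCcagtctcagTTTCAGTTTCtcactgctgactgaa
Ifit3: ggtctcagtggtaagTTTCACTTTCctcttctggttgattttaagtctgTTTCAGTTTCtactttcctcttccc
Rsad2: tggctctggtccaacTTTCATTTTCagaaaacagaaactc

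None of these 4 windows holds the GAS-like motif. Of the 8 GTPases with a window, 5 hold it. Among them are Gbp7 (chr3:142530215-142530307, plus strand), Irgm2 (chr11:58214887-58214937, plus strand), Igtp (chr11:58199496-58199546, plus strand) and Tgtp2 (chr11:49064258-49064308, minus strand). In Irgm2, Igtp and Tgtp2 a GAS-like match is followed after 2 bases by an ISRE-like match, so that both stand next to each other.
Gbp7: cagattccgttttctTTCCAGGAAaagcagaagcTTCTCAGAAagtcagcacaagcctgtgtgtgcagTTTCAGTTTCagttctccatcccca
Irgm2: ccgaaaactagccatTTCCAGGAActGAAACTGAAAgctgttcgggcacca
Igtp: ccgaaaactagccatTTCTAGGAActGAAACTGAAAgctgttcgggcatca
Tgtp2: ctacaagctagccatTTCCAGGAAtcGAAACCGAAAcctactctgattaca

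An ISRE-like match occurred in 20 of the 33 members with a window, or 60.6%, against 3.99% of the 27025 genes in the same table. By set, 7 of 11 mainly type I genes, 8 of 8 GTPases and 5 of 14 others held it. A GAS-like match occurred in 10 of 33 members, or 30.3%, against 9.55% of all genes, and in 5 of 8 GTPases (62.5%) but 2 of 11 mainly type I genes (18.2%), Ifit2 and Oas1a; the difference between the sets was not tested. The 5 GTPases with both motifs were Gbp5, Gbp7, Irgm2, Igtp and Tgtp2. The stretches of Irgm2 and Igtp are nearly identical, as are those around the ISRE-like matches of Ifit3 and Ifit3b. The matches of such pairs are therefore not separate observations. Of the 30 ISRE-like matches, 26 lay within the 200 bases before the start, with a median position 68 bases before it. Ifit2, Oasl1, Oasl2 and Irf7 had no ISRE-like match in these windows, which says only that these letters do not occur there. A match is a string of letters and not evidence of binding, and the Irgm2 window belongs to a RefSeq start that lies inside the gene as the deposited table lists it.

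**Figure D1:**
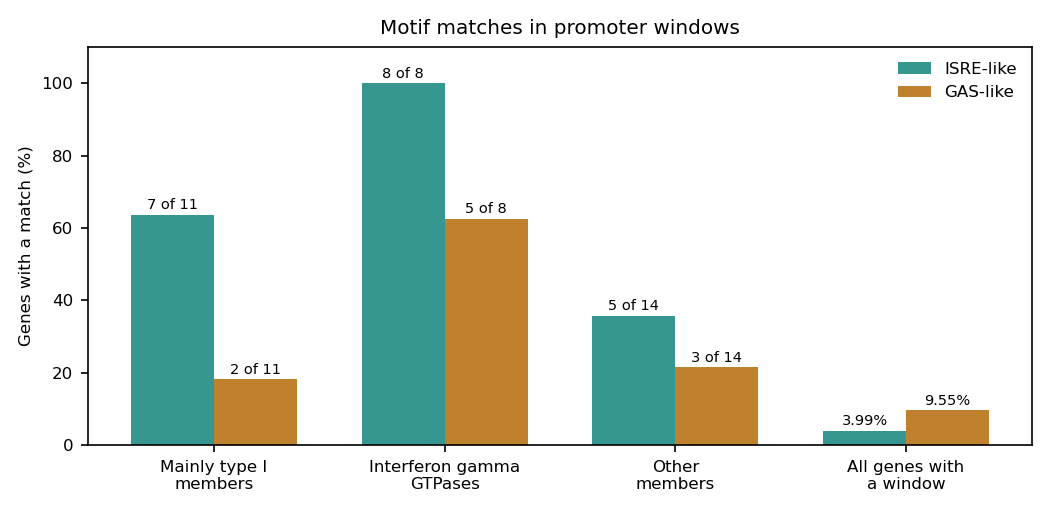
Share of genes (%, vertical axis) whose promoter window holds an ISRE-like (teal) or a GAS-like (brown) match, for the 3 sets of members and for all 27025 genes with a window; the labels give genes with a match of genes with a window. All 8 GTPases with a window held an ISRE-like match and 5 of them a GAS-like match as well, against 3.99% and 9.55% of all genes.

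Levels ranged widely among the members, on the per-length FPKM scale. The highest were Ifi27l2a, a small hydrophobic protein of intracellular membranes, and Bst2, the tetherin that holds budding viruses at the cell surface, at a mean of 110.2 and 54.6 FPKM in GSK, 107 and 53.4 FPKM in MI and 55.2 and 33.4 FPKM in Sham. At the low end, Oas3, Mx1 and Herc6 did not reach 1 FPKM in 5 libraries and were not tested, which leaves 42 of 45 members in the test. Oas3 had 0.299, 0.196, 0.154, 0.151 and 0.418 FPKM in GSK replicates 1 to 5, 0.337, 0.303, 0.516, 0.189 and 0.225 FPKM in MI and 0.0956, 0.0967, 0.0646, 0.0734 and 0.0328 FPKM in Sham. Every GSK and every MI library of this oligoadenylate synthetase lay above the highest Sham library, although at 5 to 100 fragments a library. With the filter lowered to 0.1 FPKM, which takes in 19222 genes, Oas3 was called higher in MI than in Sham with a log2 difference of 0.29 (adjusted p = 0.0057) and Mx1 with 0.70 (adjusted p = 0.01), while Herc6, the mouse ligase for Isg15, was not called in any comparison. In GSK against Sham neither Oas3, at 0.21 (adjusted p = 0.0649), nor Mx1, at 0.48 (adjusted p = 0.109), was called. All Sham libraries of Oas3 were under 0.1 FPKM, so it passed the lower filter only through the MI and GSK libraries, where it was high. Zbp1, Mx2 and Oasl1 reached 1 FPKM in no Sham library, so they entered the test only through the MI and GSK libraries.

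**Figure D2:**
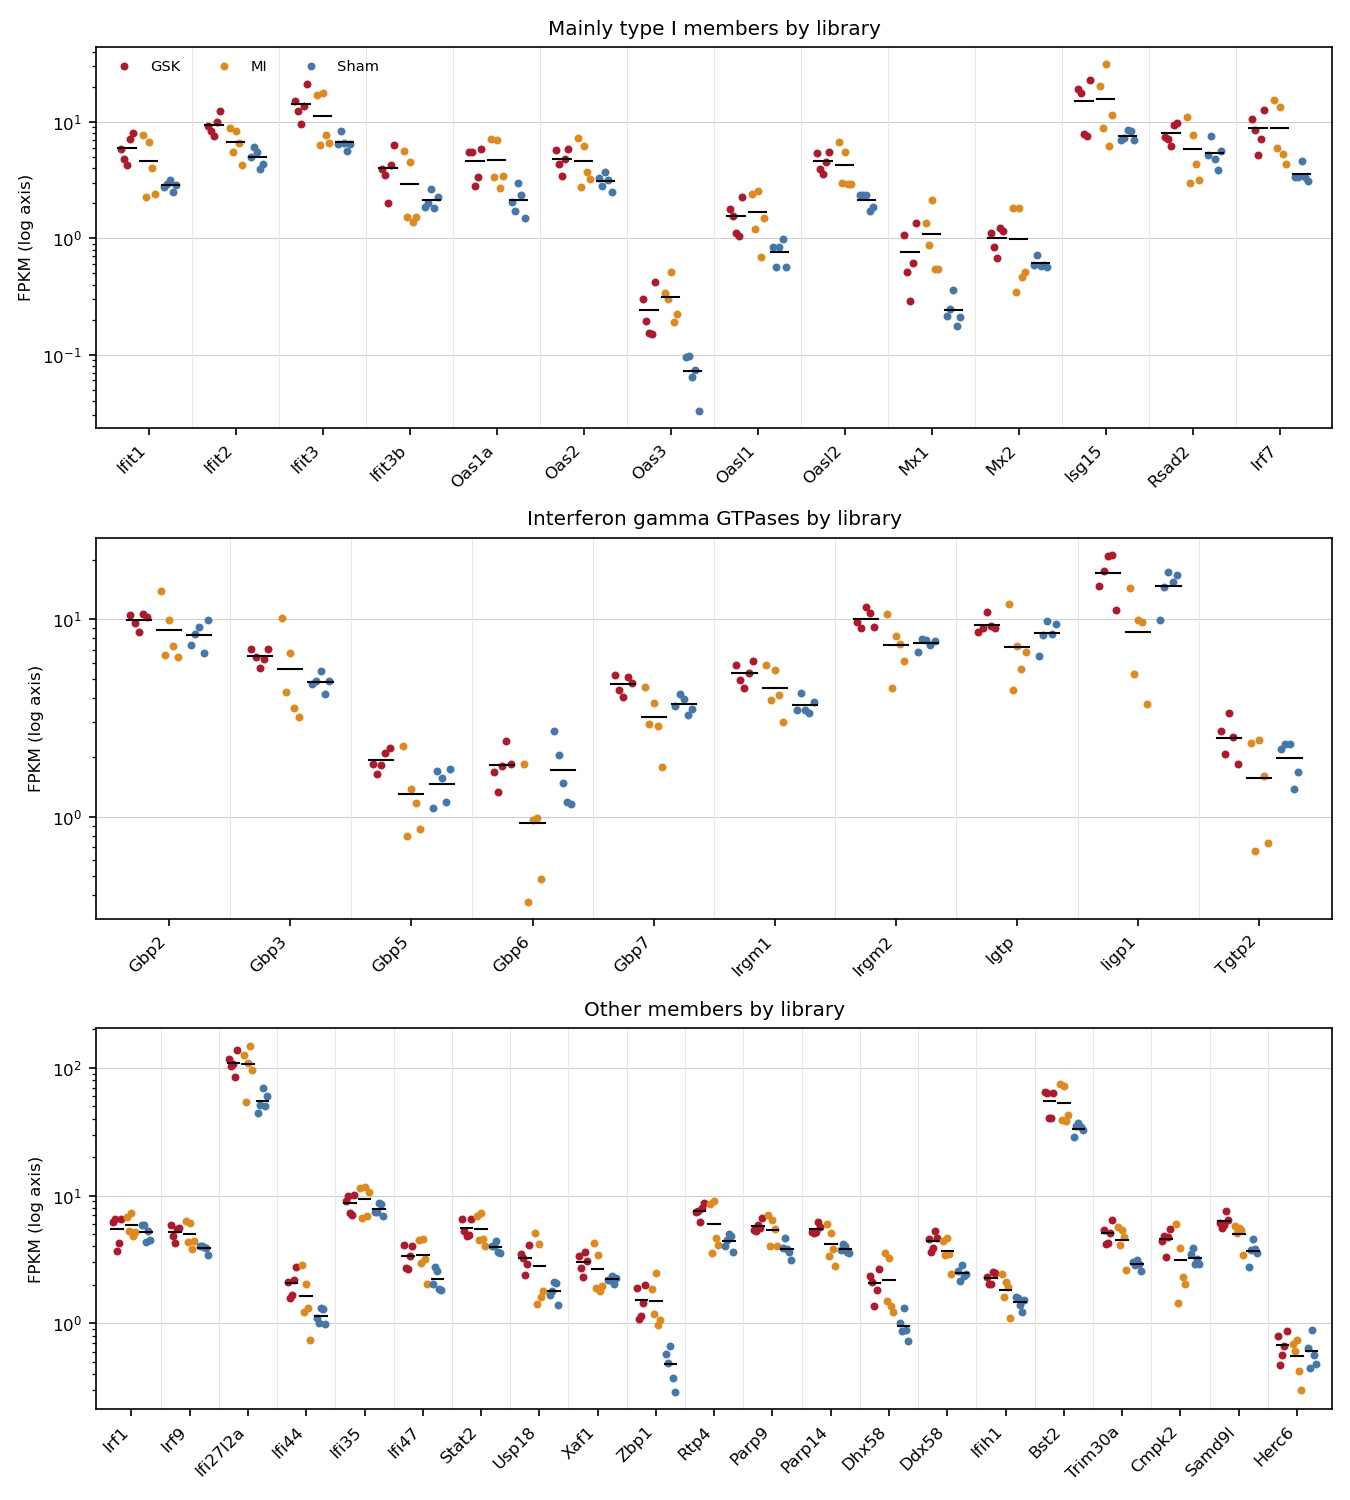
FPKM of the 45 members in each library (vertical log axis), with 1 panel per set; dots are the 5 libraries of GSK (red), MI (orange) and Sham (blue), from left to right for each gene, and black bars are means. For most type I members 2 MI libraries sit near or above the GSK values while the other 3 lie near Sham, and among the 10 GTPases the lowest library is an MI library for every gene.

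The comparison of MI with Sham asks what infarction does to these genes at day 8. Differences are on the log2(FPKM + 1) scale, which understates the change of low genes, with limma's standard error, and a gene counts as called where its Benjamini-Hochberg adjusted p over all 12585 genes tested was under 0.05. Of the 42 members tested, 14 rose in MI (background 21.9% of all genes tested) and 2 fell (background 21.9%). The share that rose, given this background, is not large: the mainly type I set contributed 4 of 12, the GTPases 0 of 10 and the others 10 of 20. Of these calls, Oasl1 in the mainly type I set and Zbp1 in the others entered the test only through the MI and GSK libraries. The 2 that fell were both GTPases, Iigp1 and Gbp6, and 2 of 10 GTPases is near the 21.9% of all genes called lower. The median log2 difference was 0.48 for the mainly type I members, -0.17 for the GTPases and 0.35 for the others, beside -0.02 for all genes tested. Leaving out single libraries moved the mainly type I median to between 0.30 (without MI replicate 1) and 0.60 (without MI replicate 2), with 0.31 without MI replicate 3. It moved the GTPase median to between -0.29 (without MI replicate 1) and -0.07 (without MI replicate 5), with -0.09 without MI replicate 2.

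Irf7, the transcription factor that amplifies type I interferon production, had 10.6, 8.51, 5.21, 7.13 and 12.6 FPKM in GSK replicates 1 to 5, 15.5, 6.02, 13.3, 5.29 and 4.35 FPKM in MI and 3.34, 3.38, 4.63, 3.4 and 3.1 FPKM in Sham. Its 2 highest MI libraries, replicates 1 and 3, stood far above the other 3, and of these replicate 5, at 4.35 FPKM, lay below the highest Sham library. The log2 difference of MI from Sham was 0.97 ± 0.29 (adjusted p = 0.0133). Oasl2, a relative of the oligoadenylate synthetases, had 5.4, 3.96, 3.54, 4.51 and 5.49 FPKM in GSK replicates 1 to 5, 6.77, 3.01, 5.51, 2.93 and 2.9 FPKM in MI and 2.38, 2.37, 2.36, 1.73 and 1.86 FPKM in Sham. No MI or GSK library of Oasl2 overlapped a Sham library, and the difference of MI from Sham was 0.68 ± 0.18 (adjusted p = 0.00779), a call that every one of the 27 alternative settings kept.

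Oas1a, an oligoadenylate synthetase that makes the messenger of RNase L, had 5.54, 5.54, 2.8, 3.36 and 5.9 FPKM in GSK replicates 1 to 5, 7.19, 3.39, 6.94, 2.71 and 3.46 FPKM in MI and 2.03, 1.71, 2.98, 2.38 and 1.5 FPKM in Sham. Its MI and Sham libraries overlapped at MI replicate 4, and the difference was 0.82 ± 0.24 (adjusted p = 0.0112). Oasl1, which in mice restrains the translation of Irf7, was the last of the 4 type I members called in MI, at 0.55 ± 0.18 (adjusted p = 0.0248). It entered the test only through the MI and GSK libraries, where it was high. Oas1a shares 40.9% of its transcript stretches of 100 bases with other genes, chiefly Oas1g, and its counts are uncertain to that degree.

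Isg15, a ubiquitin-like protein that is coupled to other proteins, was not called although its mean in MI was over that in Sham. It had 19.3, 17.6, 7.81, 7.58 and 23.1 FPKM in GSK replicates 1 to 5, 20.4, 8.83, 31.3, 6.26 and 11.5 FPKM in MI and 6.97, 7.29, 8.51, 8.36 and 7.0 FPKM in Sham. MI replicate 3 stood at 31.3 FPKM and MI replicate 4 at 6.26 FPKM, below every Sham library, and the difference of MI from Sham was 0.74 ± 0.37 (adjusted p = 0.113). The Ifit genes, whose products bind foreign RNA, were not called in MI either, with differences of 0.43 for Ifit1, 0.35 for Ifit2, 0.53 for Ifit3 and 0.19 for Ifit3b. Rsad2, the antiviral protein viperin, was closest to no difference, at -0.02 ± 0.26 (adjusted p = 0.959). Its sign turned under 7 of the 27 alternative settings, over a range of -0.25 to 0.14; with mitochondrially encoded genes left out of the scaling it was 0.06. Oas2, at 0.39, and Mx2, at 0.23, were not called.

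Among the other members, Zbp1, a sensor of Z-form nucleic acid, was one of those that entered the test only through the MI and GSK libraries. It had 1.88, 1.08, 1.15, 1.44 and 2.0 FPKM in GSK replicates 1 to 5, 1.87, 1.18, 2.46, 0.975 and 1.05 FPKM in MI and 0.575, 0.49, 0.66, 0.374 and 0.289 FPKM in Sham. No MI or GSK library overlapped Sham, and the difference of MI from Sham was 0.73 ± 0.16 (adjusted p = 0.00164). Ifi27l2a had 117, 104, 107, 85.1 and 138 FPKM in GSK replicates 1 to 5, 127, 54.5, 109, 149 and 95.8 FPKM in MI and 44.3, 51, 70.1, 50.6 and 60 FPKM in Sham. Here MI replicate 2 lay within the Sham range and the other 4 MI libraries above it, with a difference of 0.89 ± 0.22 (adjusted p = 0.00492). The calls of Oasl2, Zbp1 and Ifi27l2a in MI were the 3 of 16 that all 27 alternative settings kept.

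The cytosolic RNA sensors Ddx58 (RIG-I) and Dhx58 (LGP2) were called higher in MI, at 0.42 ± 0.12 (adjusted p = 0.0136) and 0.63 ± 0.19 (adjusted p = 0.0154), and Ifih1 (MDA5) was not, at 0.19 ± 0.11 (adjusted p = 0.182). Stat2, the part of the type I complex that activates transcription, was called at 0.36 ± 0.14 (adjusted p = 0.0455), and Irf9, its DNA-binding partner, missed the threshold at 0.27 ± 0.11 (adjusted p = 0.066). Bst2 was called at 0.60 ± 0.20 (adjusted p = 0.0265) and did not overlap with Sham. The remaining calls were Trim30a at 0.47, Ifi47 at 0.45, Parp9 at 0.39 and Samd9l at 0.36. Not called were the other 10 members of this set that were tested, between -0.14 (Cmpk2) and 0.34 (Usp18). Without overlap between the 5 MI and the 5 Sham libraries were 3 of the 42 members tested, Oasl2, Zbp1 and Bst2, all of them higher (background 15.7% of all genes tested).

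The GTPases, which attack the vacuoles in which intracellular microbes live, were not called higher in MI in any case. Iigp1, an effector of the immunity-related GTPases, had 14.7, 17.4, 20.8, 21.1 and 11.1 FPKM in GSK replicates 1 to 5, 14.4, 5.28, 9.86, 9.65 and 3.73 FPKM in MI and 9.95, 14.6, 17.3, 15.4 and 16.7 FPKM in Sham. All MI libraries but replicate 1 lay below the lowest Sham library, and the difference of MI from Sham was -0.82 ± 0.27 (adjusted p = 0.0241). Gbp6, a guanylate-binding protein, had 1.69, 1.34, 1.8, 2.42 and 1.84 FPKM in GSK replicates 1 to 5, 1.84, 0.372, 0.968, 0.987 and 0.482 FPKM in MI and 2.7, 2.05, 1.49, 1.18 and 1.16 FPKM in Sham. MI replicates 2 and 5 were the lowest of all 15 libraries, and the difference was -0.51 ± 0.19 (adjusted p = 0.0422). The call of Gbp6 was lost under 16 of the 27 alternative settings and that of Iigp1 under 6, and 64.5% of the transcript stretches of Gbp6 occur in neighbouring Gbp genes or gene models. The other 8 GTPases were not called, with log2 differences of -0.27 (Tgtp2) to 0.21 (Irgm1).

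**Figure D3:**
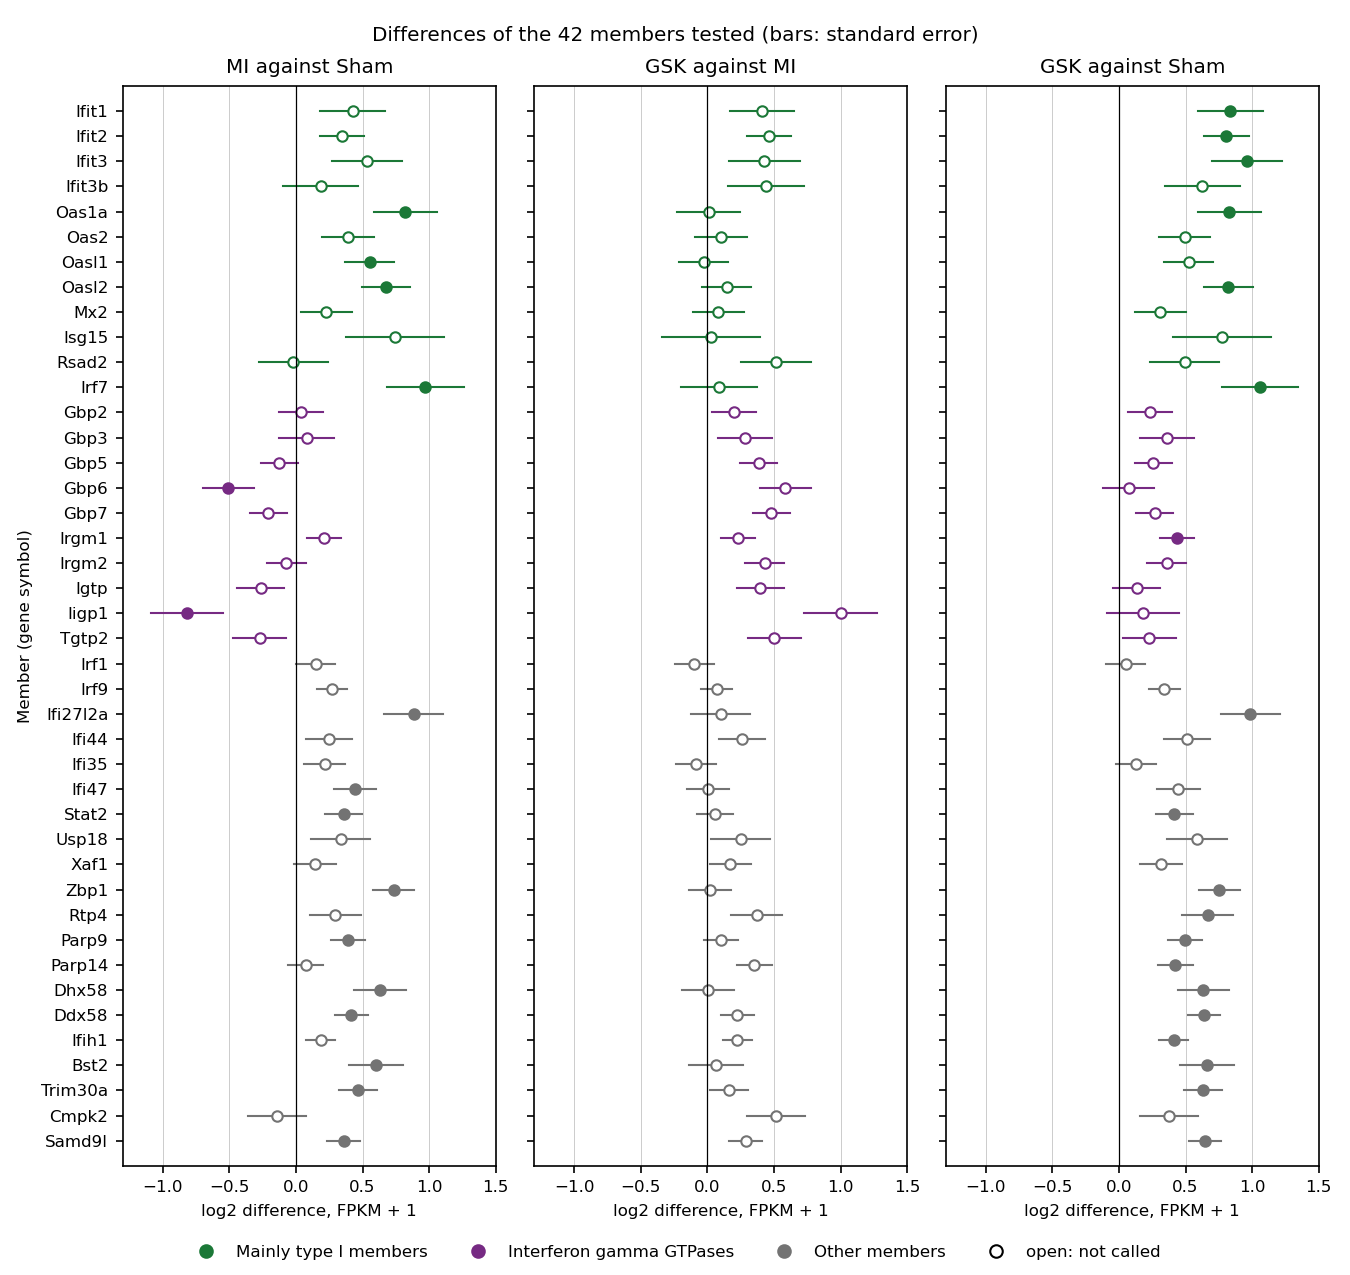
Log2 differences (horizontal axes, log2 of FPKM + 1) of the 42 members tested in MI against Sham, GSK against MI and GSK against Sham, with bars of 1 standard error; filled symbols were called at an adjusted p under 0.05 and open ones were not. GTPases (purple) lie mostly left of 0 in MI against Sham, from -0.82 to 0.21, and all right of 0 in GSK against MI, from 0.20 to 1.00; mainly type I members (green) lie right of 0 in MI against Sham except Rsad2.

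The comparison of GSK with MI asks what the EZH2 inhibitor changes in infarcted hearts. No member was called higher (background 0% of all genes tested) and none lower (background 0%), since limma called no gene in this comparison, where the lowest adjusted p over all genes was 0.0536. At an unadjusted p under 0.05, 11 of the 42 members were higher in GSK (background 10.8%) and 0 were lower (background 10.1%). Of these 11, 7 were among the 10 GTPases, namely Gbp5, Gbp6, Gbp7, Irgm2, Igtp, Iigp1 and Tgtp2. The mainly type I set gave 1 of 12, Ifit2, and the others 3 of 20, Cmpk2, Parp14 and Samd9l. The estimate was above 0 for 39 of 42 members and for 10 of 10 GTPases, beside 50.4% of all genes. The median log2 difference was 0.41 for the GTPases, 0.12 for the mainly type I members and 0.13 for the others, beside a median near 0 for all genes. The mainly type I median was 0.03 without MI replicate 2, 0.04 without MI replicate 5, 0.06 without MI replicate 4, 0.07 without GSK replicate 5, 0.08 without GSK replicate 1, 0.23 without GSK replicate 3, 0.29 without MI replicate 3 and 0.31 without MI replicate 1, and the GTPase median lay between 0.30 and 0.57 when each library was left out.

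Iigp1 carried the largest estimate, 1.00 ± 0.27 (adjusted p = 0.107), with 4 of 5 GSK libraries above every MI library. Gbp7, another guanylate-binding protein, had 5.2, 4.38, 4.06, 5.09 and 4.75 FPKM in GSK replicates 1 to 5, 4.51, 2.95, 3.77, 2.89 and 1.79 FPKM in MI and 3.65, 4.19, 3.95, 3.28 and 3.53 FPKM in Sham. Its 5 GSK libraries lay between 4.06 and 5.20 FPKM while the MI libraries spread from 1.79 to 4.51 FPKM, and the difference of GSK from MI was 0.48 ± 0.14 (adjusted p = 0.115). Gbp5, known for its part in inflammasome assembly, had 1.85, 1.64, 1.84, 2.11 and 2.22 FPKM in GSK replicates 1 to 5, 2.27, 0.802, 1.37, 1.17 and 0.871 FPKM in MI and 1.11, 1.7, 1.58, 1.19 and 1.73 FPKM in Sham. MI replicate 1 alone reached the GSK values, and the difference was 0.38 ± 0.14 (adjusted p = 0.155).

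Irgm2, a regulator that keeps effector GTPases off the cell's own membranes, had 9.66, 8.99, 11.5, 10.8 and 9.17 FPKM in GSK replicates 1 to 5, 10.6, 4.5, 8.19, 7.5 and 6.16 FPKM in MI and 6.85, 7.94, 7.88, 7.39 and 7.8 FPKM in Sham. Igtp, a regulator of the same kind, had 8.61, 9.07, 10.9, 9.21 and 9.04 FPKM in GSK replicates 1 to 5, 11.9, 4.36, 7.3, 5.63 and 6.85 FPKM in MI and 6.53, 8.29, 9.8, 8.44 and 9.43 FPKM in Sham. In both genes MI replicate 1 was within or above the GSK range and the other 4 MI libraries were below it, with differences of 0.43 ± 0.15 (adjusted p = 0.142) and 0.40 ± 0.18 (adjusted p = 0.214). Exons of Irgm2 and Igtp overlap on the same strand, so fragments there cannot be given to either gene with certainty. Gbp6 was at 0.58 ± 0.19 (adjusted p = 0.133) and Tgtp2, an effector that shares 76.8% of its transcript stretches with other genes, chiefly Tgtp1, at 0.50 ± 0.20 (adjusted p = 0.179). The 3 GTPases short of an unadjusted p of 0.05 were Gbp2 at 0.20, Gbp3 at 0.28 and Irgm1 at 0.23.

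The calls depended on single libraries. Without MI replicate 1, 8 of the 42 members were called higher in GSK than in MI (background 1.62% of all genes tested): Gbp5, Gbp6, Gbp7, Irgm2, Igtp, Iigp1, Parp14 and Cmpk2. The log2 difference of Iigp1 was then 1.20 (adjusted p = 0.0295). Without GSK replicate 5, Iigp1 was the 1 member called, at 1.13 (adjusted p = 0.0499), a share of the members near that of all genes tested (background 1.22%). Without any other single library no member was called. None of the 42 members separated all 5 GSK from all 5 MI libraries, in either direction. Few of all genes did so upward (background 1.15%), so that finding no member is near that share. The downward share of all genes is not given here.

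Among the mainly type I members, Ifit2 had 9.16, 8.32, 7.6, 9.92 and 12.5 FPKM in GSK replicates 1 to 5, 8.95, 5.53, 8.3, 6.65 and 4.25 FPKM in MI and 4.97, 6.12, 5.53, 3.96 and 4.31 FPKM in Sham. Its GSK libraries overlapped the MI libraries at MI replicates 1 and 3, and the difference of GSK from MI was 0.46 ± 0.17 (adjusted p = 0.155). For Ifit1, Ifit3, Ifit3b and Rsad2 the estimates were 0.41, 0.43, 0.44 and 0.51. For Oas1a, Oas2, Oasl1, Oasl2, Mx2, Isg15 and Irf7 they lay between -0.03 and 0.14, within 1 standard error of 0. Except for Oasl2, their signs turned under some of the 27 alternative settings, namely 8 for Oas1a, 7 for Isg15, 5 for Oasl1, 4 for Irf7, 2 for Mx2 and 1 for Oas2. A p that misses the threshold does not show that GSK and MI hearts had the same level, and the MI comparisons share the same 5 MI libraries, so the low GTPase values of MI hearts enter both. Macrophage markers moved the other way in this comparison, with estimates below 0 in 15 of the 15 tested, none of them called, and their part in the member levels was not tested.

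In GSK against Sham, 19 of the 42 members rose (background 10.8% of all genes tested) and 0 fell (background 7.58%). All 42 estimates were above 0, beside 47.3% of all genes. By set, 6 of 12 mainly type I members, 1 of 10 GTPases and 12 of 20 others were called. The share of the GTPases was near that of all genes tested. The median log2 difference was 0.79 for the mainly type I members, 0.25 for the GTPases and 0.50 for the others, beside -0.02 for all genes. No overlap between the 5 GSK and 5 Sham libraries was found for 24 of the 42 members, all higher (background 10.6%). Zbp1, which is also among the calls, and Oasl1 are among these 24 and entered the test only through the MI and GSK libraries.

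All the type I calls were of genes already shown with their levels or of the Ifit family. Ifit1 had 5.82, 4.79, 4.23, 7.2 and 8.07 FPKM in GSK replicates 1 to 5, 7.67, 2.25, 6.71, 4.05 and 2.39 FPKM in MI and 2.77, 2.95, 3.16, 2.52 and 2.88 FPKM in Sham. Ifit3 had 15, 12.4, 9.66, 13.6 and 21.2 FPKM in GSK replicates 1 to 5, 17.1, 6.37, 17.9, 7.78 and 6.64 FPKM in MI and 6.46, 8.41, 6.62, 5.67 and 6.43 FPKM in Sham. In both genes every GSK library lay above every Sham library, while the lowest MI libraries lay within or below the Sham range. The difference of GSK from Sham was 0.84 ± 0.24 (adjusted p = 0.029) for Ifit1, 0.81 ± 0.17 (adjusted p = 0.00609) for Ifit2 and 0.96 ± 0.26 (adjusted p = 0.0225) for Ifit3. Ifit3 and Ifit3b share 31.7% and 27.4% of their transcript stretches with each other, and Ifit3b was not called, at 0.63 ± 0.28 (adjusted p = 0.13). Irf7 was called at 1.06 ± 0.29 (adjusted p = 0.0215), Oasl2 at 0.82 ± 0.18 (adjusted p = 0.00828) and Oas1a at 0.83 ± 0.24 (adjusted p = 0.0257). Oas2, Oasl1, Mx2 and Rsad2 were not called, at 0.49, 0.52, 0.31 and 0.49.

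Isg15 was not called in GSK against Sham either, at 0.77 ± 0.37 (adjusted p = 0.148). GSK replicates 3 and 4 of Isg15, at 7.81 and 7.58 FPKM, lay within the Sham range, and the other 3 were at 17.6 FPKM or more. Those 2 libraries are also the GSK libraries with the highest mitochondrial shares, and MI replicate 4, the MI library with the highest share, was the lowest MI library of Isg15; the part of that share in these levels was not tested. Bst2 had 65.1, 63.1, 40.6, 40.8 and 63.3 FPKM in GSK replicates 1 to 5, 74.8, 39.1, 71.7, 38.5 and 42.6 FPKM in MI and 28.8, 34.9, 36.9, 34.2 and 32.4 FPKM in Sham. Its lower GSK libraries were the same 2 replicates, yet every GSK library lay above Sham, with a difference of 0.66 ± 0.20 (adjusted p = 0.0359).

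Of the GTPases, Irgm1, a regulator known for its part in autophagy, was the one called in GSK against Sham. It had 5.84, 4.9, 4.47, 5.35 and 6.14 FPKM in GSK replicates 1 to 5, 5.86, 3.92, 5.53, 4.11 and 3.0 FPKM in MI and 3.47, 4.21, 3.47, 3.36 and 3.82 FPKM in Sham. Its GSK libraries lay above every Sham library, with a difference of 0.44 ± 0.13 (adjusted p = 0.0289). Gbp3 and Irgm2 did not overlap with Sham either, at 0.36 ± 0.20 (adjusted p = 0.22) and 0.36 ± 0.15 (adjusted p = 0.102). Iigp1, at 0.18 ± 0.27 (adjusted p = 0.672), and Gbp6, at 0.07 ± 0.19 (adjusted p = 0.814), differed from Sham by less than their standard error.

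The calls of GSK against Sham kept under all 27 alternative settings were those of Ddx58, Ifit2, Oasl2, Samd9l, Trim30a and Zbp1. Ddx58 had 4.55, 3.61, 3.92, 5.32 and 4.7 FPKM in GSK replicates 1 to 5, 4.41, 3.41, 4.68, 3.49 and 2.44 FPKM in MI and 2.56, 2.13, 2.88, 2.33 and 2.43 FPKM in Sham, and its difference of GSK from Sham was 0.64 ± 0.12 (adjusted p = 0.00399). Samd9l, an interferon-induced restrictor of viral growth, had 6.15, 5.6, 5.84, 7.59 and 6.41 FPKM in GSK replicates 1 to 5, 5.82, 5.05, 5.56, 5.35 and 3.42 FPKM in MI and 2.78, 3.78, 4.53, 3.83 and 3.52 FPKM in Sham, and the difference was 0.65 ± 0.12 (adjusted p = 0.00344). In both genes all GSK libraries exceeded all Sham libraries. Trim30a, a mouse protein of the TRIM family, and Zbp1 were at 0.63 ± 0.14 (adjusted p = 0.00915) and 0.75 ± 0.16 (adjusted p = 0.00573). Of the genes kept, Zbp1 entered the test only through the MI and GSK libraries, where it was high.

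The remaining calls among the other members were Ifi27l2a at 0.98, Rtp4, a chaperone of membrane receptors, at 0.67, Bst2, Dhx58 at 0.63, Parp9 and Parp14, which belong to the ADP-ribosyltransferase family, at 0.49 and 0.42, Stat2 at 0.42 and Ifih1 at 0.41. Not called were Irf1, Irf9, Ifi44, Ifi35, Ifi47, Usp18, Xaf1 and Cmpk2. Among these, Irf9 at 0.34 ± 0.11 (adjusted p = 0.0504) and Ifi44 at 0.51 ± 0.17 (adjusted p = 0.0517) lay just short of the threshold. Irf1, a transcription factor that both interferons induce, was nearest to 0, at 0.05 ± 0.15 (adjusted p = 0.838). Ifi47, which is itself an immunity-related GTPase, was at 0.45 ± 0.16 (adjusted p = 0.0619) and thus above the GTPase median of 0.25.

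The number of calls in GSK against Sham depended on single libraries. Of the 42 members, 7 were called without GSK replicate 5 (background 6.14%), 9 without GSK replicate 1 (6.99%), 10 without Sham replicate 5 (7.22%), 11 without Sham replicate 4 (6.75%) and 12 without Sham replicate 1 (8.53%), where the percentages are the shares of all genes tested that were called higher in the same setting. Without the 2 mixed Sham libraries, 8 were called higher in GSK (6.19%) and 4 in MI (17.6%), a share of the members below that of all genes in MI. For MI against Sham, 8 were called without MI replicate 1 (22%), without MI replicate 3 (19.1%) or without Sham replicate 5 (19.3%), close to the shares of all genes. With mitochondrially encoded genes left out and the totals equalised, 82% of all calls in GSK against Sham were higher in place of 58.7%, and 63.4% in place of a near-even split in MI against Sham.

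The members varied together between hearts of the same group, and most of all in MI. MI replicates 1 and 3 held the 2 highest MI values in 40 of the 42 members tested, against 8.82% of all genes tested. MI replicate 1 was the highest in 30 of all 45 members and replicate 3 in 14, and the lowest value fell to replicate 5 in 20 members, to replicate 2 in 15 and to replicate 4 in 10. In GSK hearts, replicate 5 was the highest in 24 of the 42 members tested, against 17.8% of all genes, and replicate 3 the lowest in 25, against 22.4%. The GSK order was clearest in the mainly type I set, where replicate 5 was highest in 13 of 14 members and replicate 3 lowest in 11; among the 10 GTPases replicates 3 and 4 were each highest in 3.

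The coefficient of variation, the SD as a percentage of the mean, was largest in MI for 41 of the 42 members tested, against 58.7% of all genes. Its median over the members tested was 19.1% in GSK, 42.5% in MI and 14.8% in Sham, beside 15.4%, 19.2% and 10.1% over all genes. The exception was Irf1, at 25.3% in GSK, 19.0% in MI and 14.7% in Sham. Mx2, a dynamin-like GTPase, was the most variable in MI. It had 1.12, 0.847, 0.679, 1.22 and 1.16 FPKM in GSK replicates 1 to 5, 1.82, 0.346, 1.82, 0.463 and 0.515 FPKM in MI and 0.586, 0.723, 0.581, 0.587 and 0.565 FPKM in Sham. Its 2 high MI libraries were over 3 times the other 3, whereas the Sham libraries stayed between 0.565 and 0.723 FPKM. For the GTPases, the median was 11.3% in GSK, 42.5% in MI and 15.2% in Sham. For the 12 mainly type I members tested it was 28.3% in GSK, 52.9% in MI and 15.6% in Sham. Over all 14, with the untested Oas3 and Mx1, it was 30.4% in GSK, 52.9% in MI and 16.5% in Sham.

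**Figure D4:**
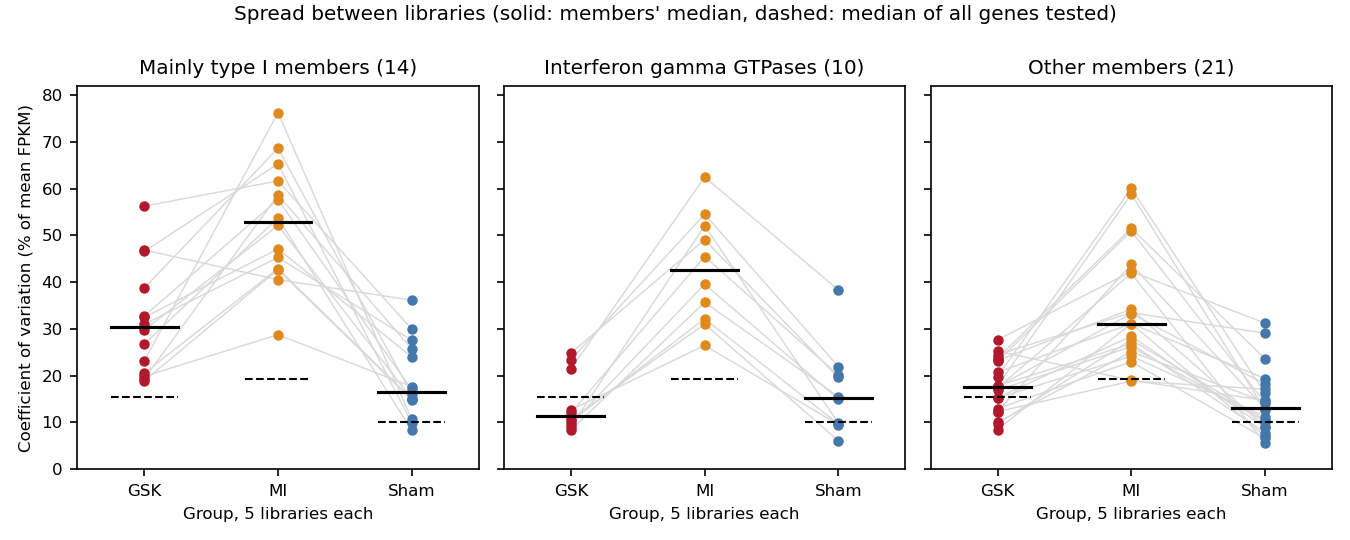
Coefficient of variation (% of the mean FPKM, vertical axes) over the 5 libraries of GSK, MI and Sham for the 14 mainly type I members, 10 GTPases and 21 other members; each dot is a gene, grey lines join the same gene, solid bars are medians of the members and dashed bars the median of the 12585 genes tested. MI stands highest in every panel, with medians of 52.9%, 42.5% and 31.1%, and the GTPases are more even in GSK hearts (11.3%) than the mainly type I members (30.4%).

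Some markers of other cells moved with MI replicates 1 and 3. The summed level of the 13 T and NK cell markers was 4.40 and 4.04 FPKM in these libraries and 3.27, 2.27 and 1.84 FPKM in MI replicates 2, 4 and 5. That of the 10 endothelial markers was 355 and 294 FPKM against 224, 221 and 246 FPKM. The macrophage marker sum did not order the libraries this way. It was 730 and 1108 FPKM in MI replicates 1 and 3 and 1017, 852 and 659 FPKM in MI replicates 2, 4 and 5. Lyz2 alone, at a mean of 423 FPKM in MI, made up much of this sum, whose mean was 873 FPKM. None of the 13 T and NK cell markers was high enough to be tested. Of the 6 markers of plasmacytoid dendritic cells, Bst2 and Irf7 are members themselves, and Siglech, the defining surface marker, averaged 0.110 FPKM in GSK, 0.0686 FPKM in MI and 0.137 FPKM in Sham. Ccr9 averaged 0.0153 FPKM in GSK, 0.0289 FPKM in MI and 0.0280 FPKM in Sham, and Klk1 0.0797, 0.0433 and 0.104 FPKM in the same groups. Tcf4, a transcription factor that many other cells also express, averaged 5.65 FPKM in GSK, 4.77 FPKM in MI and 4.12 FPKM in Sham, and it was called in GSK against Sham, as were Bst2 and Irf7. The part of these cells in the member levels was not tested.

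The relation of the mainly type I set to the GTPases differed between MI and Sham, and GSK libraries spread from the Sham range to the MI range. The mean log2(FPKM + 1) of the 14 mainly type I members was 2.39 ± 0.29 in GSK, 2.22 ± 0.53 in MI and 1.73 ± 0.09 in Sham (SD, n = 5 libraries each). That of the 10 GTPases was 2.73 ± 0.07 in GSK, 2.28 ± 0.42 in MI and 2.48 ± 0.10 in Sham. The type I mean thus averaged lowest in Sham and the GTPase mean lowest in MI, although MI libraries spread over both.

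The difference of the means, type I minus GTPase, was -0.21, -0.30, -0.77, -0.51 and 0.09 in GSK replicates 1 to 5, -0.07, -0.09, 0.28, -0.38 and -0.05 in MI and -0.67, -0.78, -0.72, -0.68 and -0.87 in Sham. Every MI library lay above every Sham library in this difference, and 4 of 5 GSK libraries did, GSK replicate 3 being within the Sham range. GSK replicates 3 and 4 lay below every MI library, and the other GSK libraries lay within the MI range. GSK replicates 3 and 4 had the highest mitochondrial shares of GSK, 46.4% and 48.7%. MI replicate 4, the lowest MI library in this difference, had the highest share of MI, 40.6%. The Sham libraries had shares of 41.2% to 42.2%. The part of the mitochondrial share in this difference was not tested. MI replicates 2 and 5, low in both sets, had a difference close to that of replicate 1, which was high in both. Since the members were chosen with results of these data known, this difference is a description and carries no p.

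**Figure D5:**
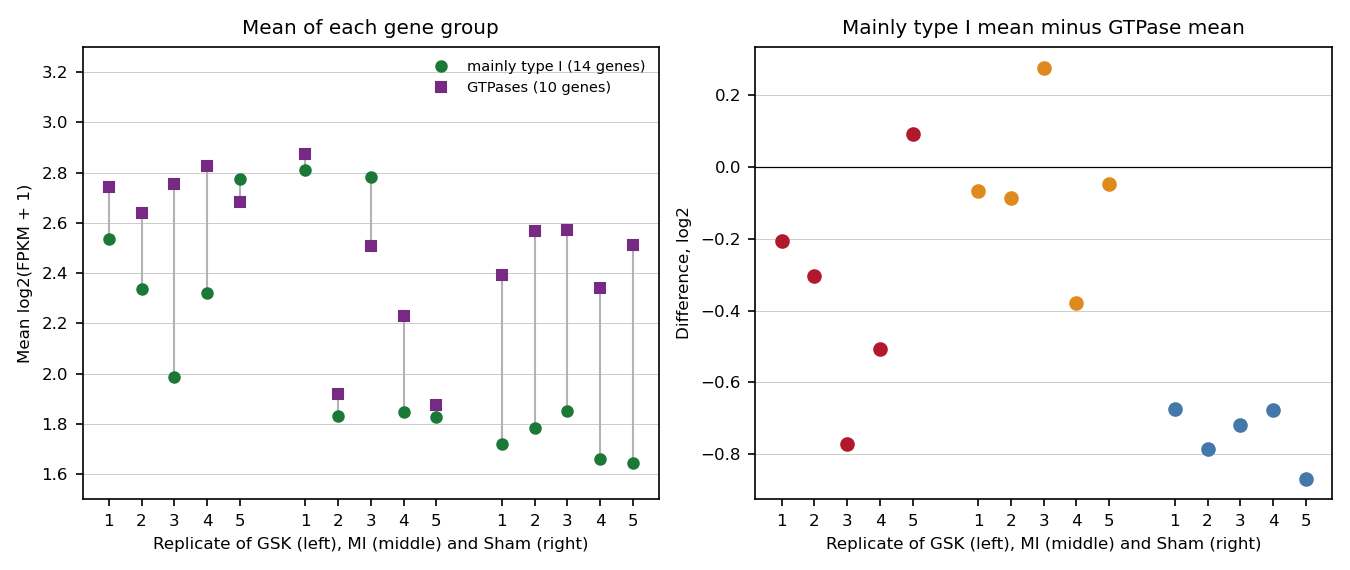
Left, mean log2(FPKM + 1) of the 14 mainly type I members (green circles) and of the 10 GTPases (purple squares) in each library, joined by a grey line; right, the type I mean minus the GTPase mean in log2 units, with GSK red, MI orange and Sham blue. Sham libraries sit together between -0.87 and -0.67, MI libraries between -0.38 and 0.28 and GSK libraries between -0.77 and 0.09.

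Interferon transcripts themselves were near the limit of detection. Of 21 interferon genes, 16 had no fragment in any library, and 5 (Ifnab, Ifnb1, Ifne, Ifnz and Ifng) had at most 7 fragments in a library. Ifng, the gamma interferon, had 2 fragments over the 5 GSK libraries, 0 over the 5 MI libraries and 3 over the 5 Sham libraries, and Ifnb1 had 0, 0 and 1. No difference in interferon transcripts was detectable at this depth. The T and NK cell markers, from cells known to make Ifng, summed to 1.81 to 2.75 FPKM in GSK, 1.84 to 4.40 FPKM in MI and 1.78 to 2.56 FPKM in Sham, and none of the 13 was high enough to be tested.

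Receptors and signalling genes were examined as a list of 16, of which 15 were tested. In MI against Sham 6 rose and 2 fell (background 21.9% each way), in GSK against Sham 5 rose and 0 fell (background 10.8% and 7.58%), and in GSK against MI 0 were called. The type I receptor chains Ifnar1 and Ifnar2 averaged 8.00 ± 0.446 and 8.60 ± 0.713 FPKM in GSK, 8.80 ± 0.602 and 9.67 ± 0.613 FPKM in MI and 5.62 ± 0.363 and 6.66 ± 0.479 FPKM in Sham (SD, n = 5 each). Both were called higher in MI, at 0.56 ± 0.06 (adjusted p = 3.2e-05) and 0.48 ± 0.07 (adjusted p = 1.3e-04), and in GSK, at 0.44 ± 0.06 (adjusted p = 6.9e-04) and 0.33 ± 0.07 (adjusted p = 0.00747). The gamma receptor chain Ifngr1 was called in MI at 0.40 and in GSK at 0.32, and its partner Ifngr2 was not, at -0.23 and -0.04.

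Stat3 rose in both comparisons with Sham, at 0.48 in MI and 0.31 in GSK, and so did Ptpn6, a phosphatase of blood cells that damps signalling, at 1.18 and 0.69. Il10rb and Pias1 fell in MI, at -0.39 and -0.31. Socs3, a feedback inhibitor of cytokine receptors, was called in MI against Sham at 1.52 ± 0.20 (adjusted p = 5.7e-05). It averaged 3.46 ± 1.18 FPKM in GSK, 8.93 ± 2.95 FPKM in MI and 2.35 ± 0.145 FPKM in Sham, and its GSK and MI libraries did not overlap, with a difference of GSK from MI of -1.14 ± 0.20 (adjusted p = 0.0751). Jak1, Jak2, Tyk2, Ptpn2 and Ifnlr1 were not called in any comparison, and Socs1 was too low to be tested.

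Of 16 sensors and adaptors of nucleic acid sensing in the table, 12 were tested, with 6 called higher in MI (background 21.9%) and 3 in GSK against Sham (background 10.8%), none called lower and none called in GSK against MI. The lowest p belonged in both to Tmem173 (STING), the adaptor of the cytosolic DNA pathway, at 1.33 ± 0.14 (adjusted p = 2.0e-05) in MI and 0.79 ± 0.14 (adjusted p = 0.00198) in GSK. In MI, Irf8, Irf5 and Tlr7 followed at 0.75, 1.07 and 0.83, and in GSK, Tlr3 and Tlr7, endosomal RNA receptors, at 0.43 and 0.64. Irf5, Irf8 and Tlr7 are abundant in macrophages. Of the 15 macrophage markers tested, 15 were called higher in MI (background 21.9%) and 10 in GSK against Sham (background 10.8%). Itgam and Ccr2 among these markers, and Tlr8 among the sensors, reached 1 FPKM in no Sham library. They entered the test only through the MI and GSK libraries, where they were high. The part of macrophage number in the sensor levels was not tested.

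A wider list of 60 further interferon-induced genes found in the table, 50 of them tested, gave 21 calls in MI (background 21.9%) and 20 in GSK against Sham (background 10.8%), all higher, and none in GSK against MI. Lgals3bp, a secreted glycoprotein, and Slfn9, of the Schlafen family, were among the 4 of lowest p in both. Their differences were 1.21 and 0.97 in MI and 1.14 and 0.92 in GSK. Slfn9 reached 1 FPKM in no Sham library, with at most 0.781 FPKM there. It entered the test only through the MI and GSK libraries, where it was high, as did Epsti1 and Ifi209 of the same list. The others were Bcl3 at 0.94 and Ifitm3, which blocks viral entry, at 0.94 in MI, and Lgals9 at 0.88 and Eif2ak2, the RNA-activated kinase PKR, at 0.67 in GSK. The median log2 difference of the wider list was 0.26 in MI and 0.33 in GSK against Sham and 0.03 in GSK against MI, beside medians near 0 for all genes.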

How the data were processed

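The authors deposited FPKM values for 54532 genes with gene lengths and coordinates. R 3.5.1, HISAT2, DESeq2, Subread's featureCounts and the build mm10 are named without role or order, per the submitters' processing notes; the annotation release, strand setting and filters were not given in sources used here. Per the labels' protocols, 1000 ng of RNA (RIN above 8) went into each library, which was sequenced in pairs of 150 nt. FPKM times gene length was a whole multiple of a library-specific step for 100% of values (within 0.01), which gave back the fragments: 21.5 M to 26.8 M a library, with 0.0357 to 0.0478 FPKM for a single fragment over 1 kb. The totals behind the deposited scaling, 20.9 M to 28.0 M, are not these sums of fragments. No library pair was identical.

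Values were tested as log2(FPKM + 1) with limma 3.58.1 in R 4.3.3 (group means, all 15 libraries sharing a spread, eBayes with a mean trend), over the 12585 genes that reached 1 FPKM in 5 or more libraries, with Benjamini-Hochberg adjustment; every adjusted p comes from it. It was tested on simulated data first. Libraries were treated as separate animals except the 2 mixed ones, and the replicate numbers do not pair the groups. The members and all lists were chosen with earlier results of these data known, so no p is given over a list. All 45 members are accounted for, with statistics for those called, those not overlapping and both named sets; receptors and signalling genes are named except 1 that is not reported here, and up to 4 called genes of lowest p from the sensing and wider lists. Alternatives covered pseudocount, filter, scaling, voom on recovered fragments, trend, groups in the fit, a replicate block and leaving out libraries. Motif searches used Python 3 on RefSeq's promoter table (GRCm38.p6), where 33 of 45 symbols matched, and overlaps used GENCODE vM21, in which 17 members share exon sequence positions with another gene on either strand; such genes, and 7 that share over 10% of their 100-base stretches with another gene, are uncertain.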

Additional observations from a re-analysis of the deposited data

Results flagged for a closer look

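Among the 135 groups examined, 45 members in 3 groups of 5 libraries, 4 held a library whose gap to the nearest of the others exceeded Dixon's 95% critical value of 0.71, where chance alone flags about 1 in 20 groups. Igtp in GSK replicate 3 stood at 10.9 FPKM, above 8.61 to 9.21 FPKM in the other GSK libraries. In Sham, Irf7 in replicate 3 stood at 4.63 FPKM, above 3.10 to 3.4 FPKM in the others, and Mx2 in replicate 2 at 0.723 FPKM, above 0.565 to 0.587 FPKM. Irf9 in Sham replicate 5 stood at 3.44 FPKM, below 3.90 to 4.05 FPKM in the others.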

How the results depend on the processing

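Over 27 alternative settings, none of the 126 single-member results reversed as a call: of 3402 values, 3161 stayed on the same side of the threshold, 180 lost a call and 61 gained a call. Of 301 values of the counts, medians and motif count that answer a comparison, 38 moved. The count of members higher in MI than in Sham, 14, was 4 without the 2 mixed Sham libraries (17.6% of all genes tested) and 8 to 17 when each library was left out in turn (19.1% to 22%). The count of members lower in MI than in Sham, 2, was 0 without a filter (8.82%) and 0 with mitochondrially encoded genes left out (15.2%). It was 1 with a filter of 0.1 FPKM, with only the 2 groups compared in the fit and without the 2 mixed Sham libraries. It was also 1 without the 3 libraries of highest mitochondrial share in MI and GSK and without the 2 GSK libraries with the letter G. In these settings with 1 call, 16.3% to 23.7% of all genes tested were called lower. The count was 0 to 3 when each library was left out (18% to 23.1%). In each of these settings the share of the members was below that of all genes. The count higher in GSK than in MI, 0, was 0 to 8 when each library was left out (0% to 1.62%). The GTPase median of GSK against MI, 0.41, was 0.54 with a pseudocount of 0.1 and 0.30 to 0.57 when each library was left out. The count higher in GSK than in Sham, 19, was 9 without a filter (3.23%), 33 with only these 2 groups in the fit (14.6%), 8 without the 2 mixed Sham libraries (6.19%), 8 without the 2 GSK libraries with the letter G (6.29%) and 7 to 23 when each library was left out (6.14% to 12.4%); with the replicate block it was 11 (7.34%). The GTPase median of GSK against Sham, 0.25, was 0.32 with a pseudocount of 0.1 and 0.35 with mitochondrially encoded genes left out, a scaling that moved the median of all genes by 0.11 there. The shorter motif GAAANNGAA was found in 22 members in place of 20. The cause of these changes was not tested, except that the settings with fewer libraries have fewer samples by construction.

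The replicate numbers gave no consistent sign of pairing: same-numbered libraries' deviations from their group means correlated at -0.41 to 0.49. Of 10 libraries, those that correlated best with their own number were 2 in MI against Sham, 1 in GSK against MI and 0 in GSK against Sham. At this depth a gene of 1 kb with under 1 FPKM rests on few fragments, which limits Oas3, Mx1, Herc6 and all interferon genes.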

Other observations

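The summed level of the 5 B cell markers was 1.10 to 1.86 FPKM in GSK, 0.897 to 8.02 FPKM in MI and 0.590 to 1.12 FPKM in Sham, and the 8.02 FPKM belonged to MI replicate 3, which was also high in the interferon response genes. The summed level of the 9 neutrophil markers was 2.69 to 10.4 FPKM in GSK, 5.95 to 17.7 FPKM in MI and 3.79 to 6.14 FPKM in Sham, and MI replicates 1 and 3, at 9.11 and 9.12 FPKM, were neither the highest nor the lowest of their group. The summed level of the 8 fibroblast markers was 359 to 1167 FPKM in GSK, 531 to 1278 FPKM in MI and 220.0 to 309 FPKM in Sham, with 541 FPKM in MI replicate 1 and 1278 FPKM in MI replicate 3.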
